A study of Mus musculus with 23 samples.

Results

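Etv1, Etv4 and Etv5 are the 3 members of the PEA3 group of ETS transcription factors. They were taken by symbol as 3 of the 53607 gene rows of the deposited tables, and all 3 passed the low-count filter that left 20372 genes. In mm10, the build named in the submitters' processing notes, the GENCODE M21 annotation placed Etv1 on the plus strand at chr12:38779380-38870484, Etv4 on the minus strand at chr11:101769742-101785371 and Etv5 on the minus strand at chr16:22381309-22439719, each as a protein-coding gene on its own chromosome. The study sequenced RNA of 23 mouse embryonic stem cell libraries, all of the Raslox/lox line, in which H-Ras and N-Ras are null, a conditional RAS allele remains and Ubiq-CreERT2 supplies a tamoxifen-activated Cre recombinase. The 8 groups combined 3 factors. Cells carried ERF wild type or were labelled ERF knockout; they were untreated (RAS present) or had 4-hydroxytamoxifen for 6 days (RAS deleted); and they were kept in 2iL or moved to FA for 48 hours. The 2iL medium contains the MEK inhibitor PD0325901, the GSK3 inhibitor CHIR99021 and LIF, while FA contains FGF2 at 12 ng/ml, Activin A at 20 ng/ml and 1% KOSR and turns naive cells into epiblast-like cells. Each group held 3 libraries, except that the FA group of wild-type ERF and undeleted RAS held 2. The drug and the deletion of RAS cannot be told apart in this design, since untreated cells received no drug.

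PEA3 factors are activators that bind DNA through the ETS domain and switch on genes in cells that receive FGF. FGF receptors signal through RAS, RAF and MEK to the kinase ERK; ERK activity raises the transcription of the PEA3 genes in many tissues and also phosphorylates their products. The same pathway relieves repression of these genes by Capicua, a DNA-binding repressor that ERK signalling inactivates, and it exports from the nucleus ERF, an ETS repressor that competes for ETS sites. PEA3 proteins are removed by a ubiquitin ligase built around Cop1 and Det1, and the Sprouty, Spred and dual-specificity phosphatase genes, which are switched on beside them, restrain the pathway as feedback inhibitors.

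Upstream sequence is shown for Etv5 because its window held the letters described next. It was also chosen as the member whose RNA changed least, as a ratio, across the 8 groups. RefSeq promoter windows of GRCm38.p6 were matched for 2 of the 3 genes, Etv1 and Etv5, with 2 windows each. The 250 bases before the inner Etv5 start, at chr16:22438369-22438618 on the minus strand, overlapped no annotated exon and were 62% GC, against a median of 52.4% over 32851 windows. Read 5′ to 3′ they are as follows, with capitals marking the heptamer TGAATGG on either strand.
Etv5: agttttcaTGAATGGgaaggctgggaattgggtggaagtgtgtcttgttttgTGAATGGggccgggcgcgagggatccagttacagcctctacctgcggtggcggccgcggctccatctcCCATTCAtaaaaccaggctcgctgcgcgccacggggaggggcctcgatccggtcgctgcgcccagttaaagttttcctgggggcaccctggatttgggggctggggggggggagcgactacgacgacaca
The heptamer, which is part of the octamer that Capicua is known to bind, occurred 3 times, at positions -242, -198 and -130 from the start, and 2.98% of all windows held at least 1 copy on either strand. It had 0 matches in the other 3 windows, the outer one of Etv5 and both of Etv1. It was chosen after the sequence had been seen. The octamers TGAATGAA, TGAATGGA, TCAATGAA and TCAATGGA were absent from all 4 windows of Etv1 and Etv5 and present in 3.19% of windows, and the ETS octamer CCGGAAGT was likewise absent and present in 2.88%. These are matches of letters only.

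Total estimated counts per library ran from 16.2 to 29.9 M, and the 3 genes had between 10 and 8805 counts per library. General pluripotency markers (Pou5f1, Sox2, Sall4, Lin28a) summed to between 398 and 753 TPM in every library, whereas the mesoderm markers reached at most 1.67 TPM and the fibroblast markers at most 1.16 TPM, with up to 2 of the 4 fibroblast genes at 0 in every library of a group. The RNA of Erf itself was compared first as a check of the labels. With RAS present, libraries labelled ERF knockout held 29.1 to 40.3 TPM in 2iL, against 23.7 to 30.2 TPM with ERF wild type, and 17 to 19.2 TPM in FA, against 19.2 to 27.6 TPM. With RAS deleted it stood at 35.9 to 45.5 against 32.4 to 34.2 TPM in 2iL and at 18.1 to 21.3 against 25.6 to 29.7 TPM in FA, and neither pair of ranges overlapped. No difference reached 2-fold (log2 0.58, -0.14, 0.79 and -0.20 in that order, edgeR adjusted p 0.00218, 0.614, 6.89e-05 and 0.230), and in 2iL Erf RNA was higher, not lower, under the knockout label. The RNA level thus did not bear out the knockout. Total RNA of a gene does not show whether its protein is made, so the level cannot settle the genotype. ERF knockout is used here only as the name of the label. TPM is scaled by transcript length and the edgeR counts are not, so the differences of Erf in these measures can differ in size. Nothing in the labels says that replicates came from separate cultures, so the p-values measure the spread between these samples. In the 4 libraries of replicate 1 with ERF wild type, genes on chromosome 8 stood 0.14 to 0.24 higher in the median (log2) than in the average library. None of the 3 genes lies on that chromosome, and each result that changes without those libraries is given with its value.

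Etv5 was the most abundant of the 3 transcripts in all 23 libraries and kept a narrow range as a ratio of highest to lowest library. TPM is a share of all transcripts scaled by transcript length, so it allows levels of different genes to be set side by side. With ERF wild type in 2iL, Etv5 stood at 49.7, 62.5 and 72.1 TPM in the 3 libraries with RAS present and at 64.1, 82.3 and 83.5 TPM with RAS deleted. In FA it stood at 73.8 and 75.1 TPM with RAS present and at 57.5, 79.4 and 96.1 TPM with RAS deleted. Of these 4 groups only the 2 with RAS present did not overlap, at 72.1 TPM against 73.8 TPM, and the widest spread lay within a single group. The libraries labelled ERF knockout spanned less, at 57.4, 54.1 and 51.2 TPM with RAS present and 49.3, 42.2 and 49.6 TPM with RAS deleted in 2iL. They stood at 51.8, 52 and 54.5 TPM with RAS present and at 47.6, 45.3 and 50.6 TPM with RAS deleted in FA. Their range, 42.2 to 57.4 TPM, held ERF-wild-type replicate 1 with RAS present in 2iL, at 49.7 TPM. From the lowest to the highest library Etv5 spanned 42.2 to 96.1 TPM.

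Etv4 covered the widest range as a ratio of highest to lowest library, from 0.356 to 40.9 TPM. In 2iL with ERF wild type it stood at 27.4, 37.5 and 40.9 TPM with RAS present and at 21.2, 29.7 and 29 TPM with RAS deleted. The matching libraries labelled ERF knockout held 16.1, 12.4 and 16.5 TPM and 12.1, 9.32 and 12.4 TPM. Every ERF-wild-type library in 2iL was thus above every library labelled ERF knockout. In FA with RAS present the level was 28.8 and 24.2 TPM with ERF wild type and 14.7, 11.8 and 18.2 TPM with the knockout label. With RAS deleted in FA it was 2.33, 3.73 and 5.6 TPM with ERF wild type, and with the knockout label 0.495, 0.448 and 0.356 TPM. The last 3 values rest on 16, 10 and 19 counts. Both RAS-deleted groups in FA lay below every other library of the series.

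Etv1 was the least abundant member in 2iL. With ERF wild type it stood there at 1.11, 4.88 and 4.87 TPM with RAS present and at 3.13, 7.71 and 6.37 TPM with RAS deleted, and replicate 1 was the lowest in both groups. Libraries labelled ERF knockout were all under 2 TPM in 2iL, at 1.69, 1.09 and 1.18 TPM with RAS present and 0.959, 0.959 and 1.21 TPM with RAS deleted. In FA it stood at 19.7 and 19.9 TPM with wild-type ERF and undeleted RAS and at 6.75, 9.77 and 11.1 TPM once RAS was deleted. FA libraries with the knockout label held 13.9, 13.8 and 16.6 TPM with RAS present and 6.12, 7.27 and 5.92 TPM with RAS deleted. The FA groups with RAS present lay above all other groups, whereas the RAS-deleted FA groups overlapped the RAS-deleted 2iL group with wild-type ERF. The plot of TPM by library shows the 3 patterns side by side.

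**Figure D1:**
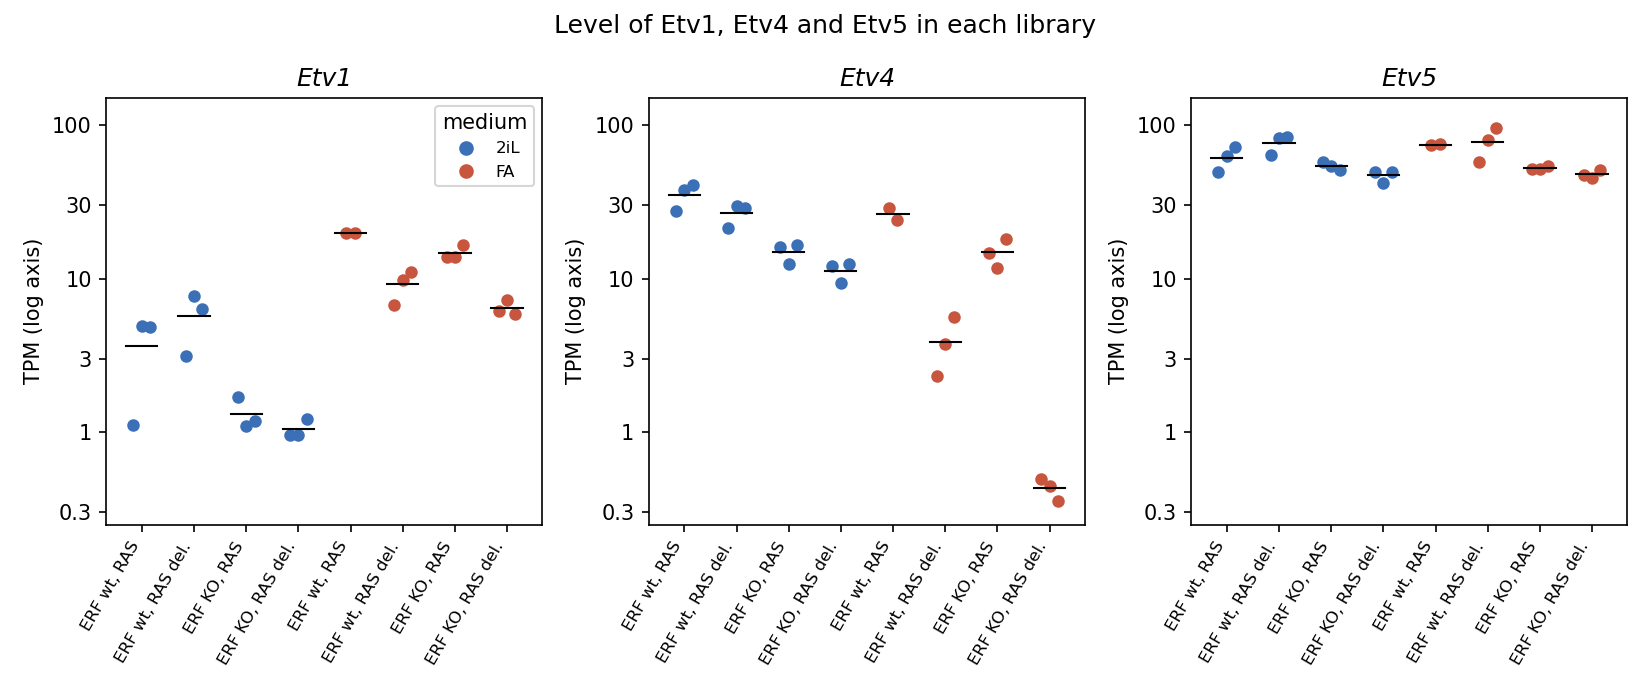
Level of Etv1, Etv4 and Etv5 in TPM (log axis, same range in each panel) in each of the 23 libraries, by ERF label and RAS state; points are libraries, coloured by medium, and lines are group means. Etv5 stays between 42.2 and 96.1 TPM, Etv4 drops to 0.356 to 0.495 TPM under the knockout label with RAS deleted in FA, and Etv1 is highest in FA with RAS present.

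Ordered by group mean, Etv1 ran from 19.8 TPM (wild-type ERF, RAS undeleted, FA) through 14.8 TPM (ERF knockout label, RAS present, FA) to 1.04 TPM (ERF knockout label, RAS deleted, 2iL). Of the 7 pairs of neighbours in its order, 2 differed at an edgeR quasi-likelihood adjusted p under 0.05 with at least a 2-fold change, the rule for a call used throughout. These were ERF knockout label with RAS present over ERF wild type with RAS deleted, both in FA, and ERF wild type over the knockout label with RAS present in 2iL. For Etv4 the order began with 3 groups of wild-type ERF (RAS present in 2iL, RAS deleted in 2iL, RAS present in FA) at 35.3, 26.6 and 26.5 TPM, and its calls were the last 2 steps, from 11.3 to 3.88 TPM and from 3.88 to 0.433 TPM. Etv5 ran from 77.6 to 47.1 TPM with no neighbouring pair called. The top 2 Etv1 groups do not overlap in TPM, but their scaled counts, 48.7 and 47.8 CPM, barely differ: the transcript length that Salmon assigned to Etv1 was 2384 to 2636 bases in the first and 2781 to 3156 bases in the second.

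Summed over the 3 genes, the level was highest in RAS-present FA cells with wild-type ERF, at 121 ± 2.22 TPM (SD, n = 2), and lowest under the ERF knockout label with RAS deleted in FA, at 54.7 ± 1.98 TPM (SD, n = 3). What changed most was the make-up of this sum. Etv4 supplied 35.2 ± 0.544% (SD, n = 3) of it with wild-type ERF and undeleted RAS in 2iL, 4.16 ± 0.745% (SD, n = 3) after RAS deletion in FA and 0.795 ± 0.15% (SD, n = 3) after RAS deletion in FA under the knockout label. The Etv5 share moved the other way, from 61.4 ± 1.99% (SD, n = 3) to 85.7 ± 0.593% (SD, n = 3) and 87.4 ± 1.79% (SD, n = 3) in the same groups. Etv1 supplied 3.4 ± 1.74% (SD, n = 3) in 2iL and 16.4 ± 0.391% (SD, n = 2) in FA with wild-type ERF and undeleted RAS. These shares are per transcript length. As shares of summed CPM, which are not scaled by length, Etv4 ran from 0.285 to 16.1% and Etv5 from 75.9 to 91.1% over the 8 groups, and 20 of the 24 shares moved by more than the spread between libraries. The stacked group means show that Etv5 alone carried most of the sum in every group.

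**Figure D2:**
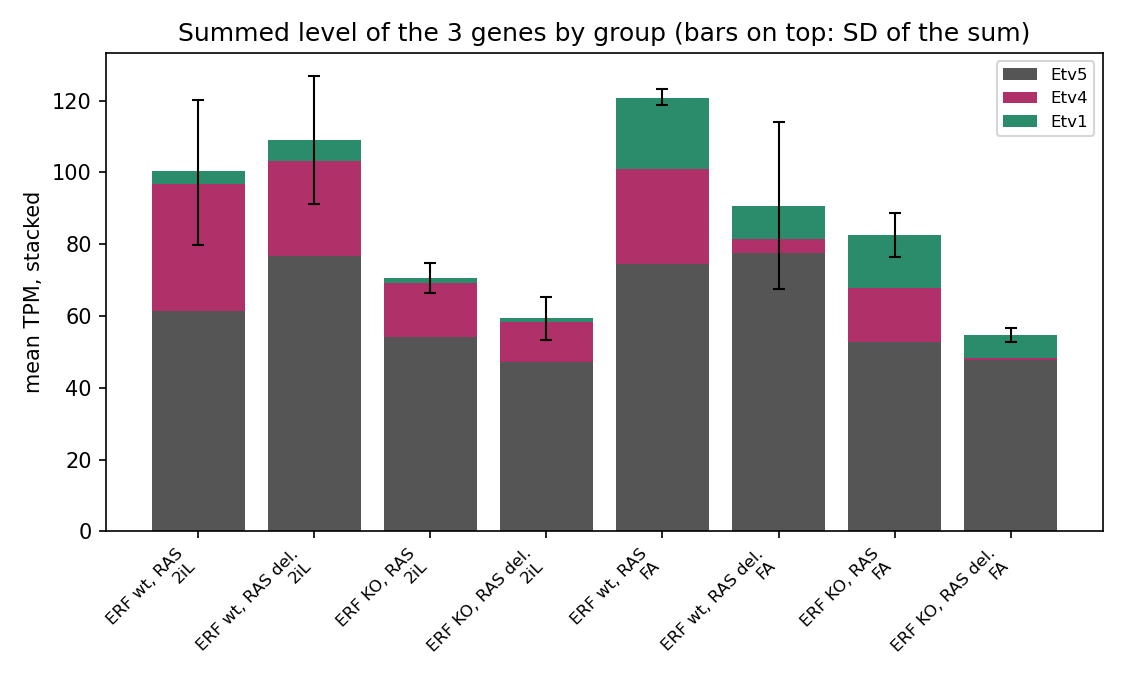
Mean TPM of Etv5, Etv4 and Etv1 stacked for each of the 8 groups, with the SD of the sum over libraries as the error bar (n = 3, or 2 for wild-type ERF and undeleted RAS in FA). The Etv4 block is nearly gone after RAS deletion in FA, and the Etv5 block is the tallest in all 8 groups.

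The move from 2iL to FA, from a medium that blocks MEK to one that supplies FGF2, raised Etv1 when RAS was present, while Etv4 and Etv5 were not called. With ERF wild type and RAS present Etv1 rose 4.56-fold, from 10.9 to 48.7 CPM in the group means (log2 2.19, SE 0.33, edgeR quasi-likelihood adjusted p 3.30e-05). Neither Etv4 (log2 -0.40, SE 0.19, edgeR adjusted p 0.0840) nor Etv5 (0.24, SE 0.12, edgeR adjusted p 0.103) was called, in a comparison where 24% of all tested genes were called in either direction. Under the ERF knockout label and RAS present Etv1 rose 9.43-fold, from 5.06 to 47.8 CPM (log2 3.24, SE 0.34, edgeR adjusted p 5.33e-07), while the intervals of Etv4 (95% confidence interval -0.15 to 0.57) and Etv5 (-0.24 to 0.20) held 0. Here 19.7% of tested genes were called. Same-numbered libraries deviated together in this comparison. Within each of the 3 pairs Etv4 was higher in FA (20.9 to 24.2, 19.1 to 21.7 and 22.2 to 26.0 CPM). With the replicate number as a block its difference was 0.19, past the adjusted p and under the 2-fold minimum (edgeR adjusted p 0.0474). In bulk RNA, fewer cells that express a gene and less RNA per cell cannot be told apart.

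With RAS deleted the same change of medium lowered Etv4. Etv4 fell 8.24-fold with ERF wild type (log2 -3.04, SE 0.20, edgeR adjusted p 1.64e-10), beside 16.5% of tested genes called, and 30.7-fold with the ERF knockout label (log2 -4.94, SE 0.27, edgeR adjusted p 4.52e-12), beside 24.9%. On the log2(TPM + 1) scale these falls were -2.54 and -3.09 in limma, both still called. Etv1 rose 4.47-fold with the knockout label (log2 2.16, SE 0.35, edgeR adjusted p 5.83e-05) but was not called with ERF wild type, where its ranges overlapped (log2 0.38, 95% confidence interval -0.25 to 1.02, edgeR adjusted p 0.334). Same-numbered libraries deviated together in this comparison, and Etv1 was higher in FA within each of the 3 pairs (11 to 16.6, 21 to 26.6 and 20.7 to 25.5 CPM). With the replicate block the difference was 0.41, past the adjusted p and under the 2-fold minimum (edgeR adjusted p 0.00995). Etv5 was 1.25-fold lower in FA with the knockout label, under the 2-fold minimum (log2 -0.32, SE 0.11, edgeR adjusted p 0.0132), and not called with ERF wild type (-0.14, SE 0.11). With ERF wild type Etv5 was lower in FA within each of the 3 pairs (265 to 225, 310 to 271 and 323 to 317 CPM). With the replicate block that difference was -0.15 and did not pass (edgeR adjusted p 0.119).

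Removing RAS under MEK inhibition, in 2iL, gave no call for the 3 genes in either ERF state, in edgeR or in DESeq2. With ERF wild type the log2 differences were 0.72 for Etv1 (SE 0.32), -0.45 for Etv4 (SE 0.17) and 0.27 for Etv5 (SE 0.11), with edgeR adjusted p of 0.197, 0.120 and 0.138 (unadjusted 0.0364, 0.0141 and 0.0184), and 1.20% of tested genes were called. Only the TMM-scaled counts of Etv4 did not overlap, with means of 49.6 CPM with RAS present against 36.2 CPM without. Same-numbered libraries deviated together here, and within each of the 3 pairs Etv4 was lower without RAS (42.4 to 30.3, 52.8 to 38.0 and 53.7 to 40.4 CPM) while Etv1 and Etv5 were higher. With the replicate number as a block the differences were -0.46 for Etv4, 0.76 for Etv1 and 0.27 for Etv5, all past the adjusted p (edgeR adjusted p 0.000622, 0.00634 and 0.00497) and all under the 2-fold minimum. With the ERF knockout label the differences were -0.26, -0.24 and -0.04, all with intervals that hold 0 and edgeR unadjusted p between 0.193 and 0.708, and 0.211% of tested genes were called. Etv4 was again lower without RAS in each of the 3 pairs (20.9 to 18.2, 19.1 to 14.2 and 22.2 to 20.4 CPM), by -0.26 with the block (edgeR adjusted p 0.0188), also under 2-fold. Etv1 was lower in each of these pairs too (4.95 to 4.21, 5.09 to 3.86 and 5.15 to 4.65 CPM), where its difference with the block was -0.27 and did not pass (edgeR adjusted p 0.210).

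In FA, RAS deletion lowered Etv4 and Etv1 in both ERF states and left Etv5 within a 2-fold change. With ERF wild type, Etv4 fell 8.53-fold, from 37.5 to 4.35 CPM (log2 -3.09, SE 0.21, edgeR adjusted p 2.90e-10; -2.54 with limma on log2(TPM + 1)), and Etv1 fell 2.12-fold, from 48.7 to 22.9 CPM (log2 -1.09, SE 0.32, edgeR adjusted p 0.0111). The Etv1 call is close to the limit: it was lost without replicate 1 of the RAS-deleted group (-0.90), without replicate 2 of its untreated counterpart (-1.03), and without the 4 chromosome 8 libraries (-0.93). Etv5 differed by -0.11 (95% confidence interval -0.35 to 0.13), and its groups overlapped. Of all tested genes, 17.3% were called in either direction, 8.93% higher and 8.33% lower.

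Under the ERF knockout label, Etv4 fell 42.0-fold on RAS deletion in FA, from 24 to 0.570 CPM (log2 -5.39, SE 0.26, edgeR adjusted p 3.06e-11), the 11th largest fall of the 20372 genes by fitted fold change. The size depends on the scale: over the alternatives it ran from -5.67 to -3.45, the last with limma on log2(TPM + 1), whose pseudocount exceeds the 0.356 to 0.495 TPM of Etv4 in that group. Etv1 fell 2.52-fold, from 47.8 to 18.9 CPM (log2 -1.34, SE 0.29, edgeR adjusted p 0.00315). For Etv5 the level was 1.27-fold lower, with no overlap between groups but under the 2-fold minimum (log2 -0.34, SE 0.11, edgeR adjusted p 0.0211). In this comparison 6.88% of genes were called, 2.81% higher and 4.06% lower.

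Libraries labelled ERF knockout had less Etv4 than ERF-wild-type libraries in each setting. In 2iL, Etv4 fell 2.39-fold with RAS present (log2 -1.26, SE 0.17, edgeR adjusted p 1.62e-05) and 2.07-fold with RAS deleted (log2 -1.05, SE 0.18, edgeR adjusted p 8.61e-05). In FA with RAS present it was 1.57-fold lower, under the 2-fold minimum (log2 -0.65, SE 0.19, edgeR adjusted p 0.0333), and in FA with RAS deleted it fell 7.71-fold (log2 -2.95, SE 0.30, edgeR adjusted p 1.06e-07; -1.71 with limma on log2(TPM + 1)). The 2iL call with RAS deleted was lost without replicate 3 of the ERF-wild-type group (-0.96) or replicate 2 of the group with the knockout label (-0.91), both just under 2-fold.

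Etv1 was lower with the ERF knockout label in 2iL, and its differences in FA were not called. It fell 4.16-fold in 2iL with RAS deleted, from 17.6 to 4.24 CPM (log2 -2.06, SE 0.36, edgeR adjusted p 0.000228). With RAS present in 2iL the call (log2 -1.08, SE 0.35, edgeR adjusted p 0.0308) rested on overlapping groups, since ERF-wild-type replicate 1 sat among the libraries with the knockout label. It was lost without any of 5 of the 6 libraries (-1.09 to -0.75), and the difference grew to -1.47 without that replicate 1. The FA differences were -0.03 with RAS present and -0.28 with RAS deleted, both with intervals that hold 0. Etv5 was lower with the knockout label by log2 0.11 to 0.60 and never by 2-fold, and its ranges did not overlap in 3 of the 4 settings. The largest Etv5 difference was -0.60 in FA with RAS deleted (SE 0.11, edgeR adjusted p 7.49e-05). The shares of tested genes called for the ERF label were 9.72% in 2iL and 2.36% in FA with RAS present, and 13% in 2iL and 16.6% in FA with RAS deleted. The plot of fold changes sets these effects beside those of medium and RAS.

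**Figure D3:**
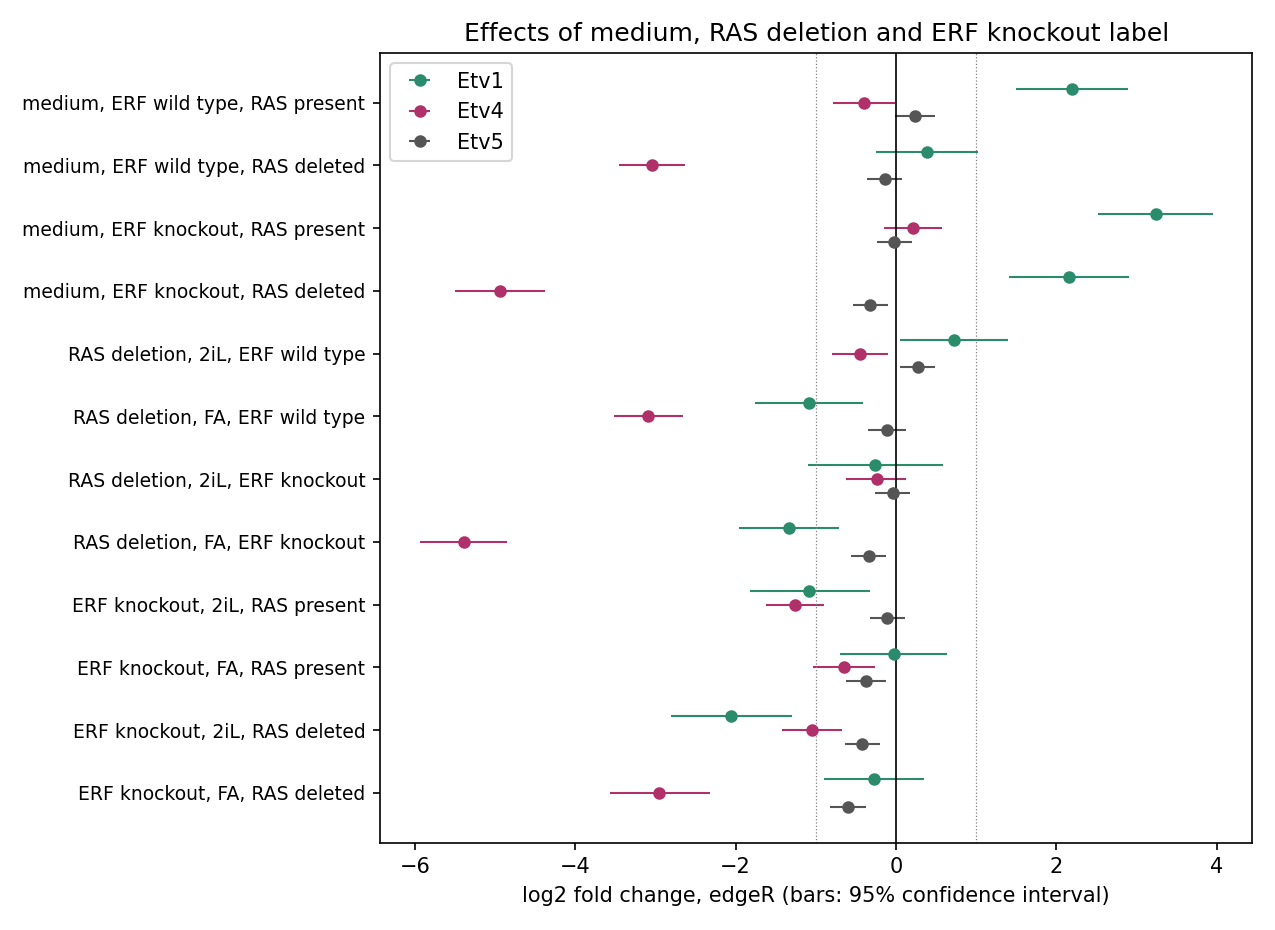
Log2 fold change of Etv1, Etv4 and Etv5 (edgeR) in the 12 comparisons that change a single factor, with 95% confidence intervals; the first-named state is FA over 2iL, RAS deleted over present, or ERF knockout label over wild type, and dotted lines mark a 2-fold change. Etv4 reaches -5.39, Etv1 reaches 3.24, and all Etv5 values lie inside the dotted lines.

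Tests of the differences between these effects asked whether the factors act separately. In FA, RAS deletion lowered Etv4 more with the ERF knockout label than with ERF wild type, by -2.30 on the log2 scale (SE 0.37, edgeR adjusted p 8.01e-05; 13.7% of tested genes were called for this difference). With limma on log2(TPM + 1) it was -0.91 and not called by the 2-fold minimum (limma adjusted p 0.0448). The same difference was -0.25 for Etv1 and -0.23 for Etv5, neither called. In 2iL it was -0.98, 0.21 and -0.31 for Etv1, Etv4 and Etv5, none called, beside 0.378% of genes. Deleting RAS shifted the response of Etv4 to the medium by -2.64 with ERF wild type (SE 0.27, edgeR adjusted p 2.94e-07) and by -5.15 with the knockout label (SE 0.33, edgeR adjusted p 5.41e-09), or by -2.15 and -3.07 with limma on log2(TPM + 1). For Etv1 the shift was -1.81 with ERF wild type (SE 0.45, edgeR adjusted p 0.00673) and -1.08, not called, with the knockout label (SE 0.49, edgeR adjusted p 0.165). In a fit of only its own 4 groups the latter was called, at -1.07 without (edgeR adjusted p 4.16e-05) and with (edgeR adjusted p 1.13e-05) the replicate block, while the former was not called without the block (-1.78, edgeR adjusted p 0.0790) and was called with it (-2.06, edgeR adjusted p 0.00566). These tests called 11.9% and 4.59% of genes.

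The ERF label also altered the response to the medium once RAS was deleted, in opposite directions for 2 members, although the Etv4 call depended on the scale. The shift was 1.78 for Etv1 (SE 0.47, edgeR adjusted p 0.00915) and -1.90 for Etv4 (SE 0.36, edgeR adjusted p 0.000517), with -0.18 for Etv5, beside 11.3% of genes called. With limma on log2(TPM + 1) the Etv4 shift was -0.55 and not called (limma adjusted p 0.196). With RAS present none of the 3 shifts was called (1.05, 0.61 and -0.26), beside 4.27% of genes. The value of 1.05 for Etv1 became 1.45 and was called (edgeR adjusted p 0.00386) without replicate 1 of the 2iL group of wild-type ERF with undeleted RAS, the library in which Etv1 stood at 1.11 TPM.

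Ratios within a library compared the members with each other directly. Labels of 1 factor were permuted within the 4 combinations of the other factors, all 80000 arrangements were counted, and p-values were adjusted over 9 tests. Etv4 fell relative to Etv5 with RAS deletion by 2.11 on the log2 scale, with the same direction in 4 of 4 combinations (two-sided exact permutation adjusted p 8.44e-05). This is a mean of unequal effects, from -4.66 to -0.20. With the ERF knockout label the mean was -1.02, again in 4 of 4 and from -2.16 to -0.35 (exact permutation adjusted p 8.44e-05). Etv1 rose relative to Etv5 in FA by a mean of 2.26 (0.74 to 3.44, exact permutation adjusted p 5.63e-05) and relative to Etv4 by 4.25 (3.08 to 6.93, exact permutation adjusted p 5.63e-05), each in 4 of 4; an unadjusted p of 1.25e-05 is the smallest these arrangements can give. Etv4 also fell relative to Etv5 in FA, by 1.98, in 3 of 4 combinations (exact permutation adjusted p 3.94e-04), the other being 0.02 with the knockout label and RAS present. The ratio of Etv1 to Etv5 did not pass for RAS deletion (difference -0.45, exact permutation adjusted p 0.0681), and its difference with the ERF label (-0.57, exact permutation adjusted p 0.0269) had the same direction in only 2 of 4 combinations.

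Feedback inhibitors of ERK, the genes that are switched on beside the PEA3 factors, gave the other readout of the pathway. Of 11 on the list (Spry1, Spry2, Spry4, Spred1, Spred2, Spred3, Dusp4, Dusp5, Dusp6, Dusp7, Il17rd), 7 were called higher and 0 lower in FA with wild-type ERF and undeleted RAS, with a median log2 change of 1.81 against 0.03 over all tested genes, of which 24% were called in either direction. With RAS deleted in FA, 7 were lower and 0 higher with ERF wild type, with a median of -2.89 against 0.00, beside 8.33% of all tested genes called lower. Dusp6, a phosphatase of ERK, went from 59.9 to 9.24 TPM (log2 -2.89, edgeR adjusted p 5.51e-09), and Spry4, a Sprouty inhibitor of the pathway, from 6.98 to 0.0824 TPM (log2 -6.52, edgeR adjusted p 9.99e-14). In 2iL, edgeR called 0 of the 11 on RAS deletion with either ERF label, where few genes of any kind were called (1.20% with ERF wild type and 0.211% with the knockout label). At an unadjusted p under 0.05 edgeR listed 5 with ERF wild type and 1 with the knockout label, and DESeq2 called 2 lower with ERF wild type and 0 with the knockout label. The shares of all tested genes past that unadjusted threshold, or called by DESeq2, are not given here, so these counts do not set the 11 genes apart.

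Under the ERF knockout label, loss of RAS in FA lowered 4 of the 11 feedback genes and raised 0, with a median of -0.65, beside 4.06% of all tested genes called lower. These were Spry4 (log2 -4.41), Spred3 (-2.42), Dusp4 (-3.41) and Dusp6 (-2.22). The effect of RAS differed between the ERF states for 4 of the 11, beside 13.7% of all tested genes, in the direction opposite to Etv4: Spry2 by 3.36, Spry4 by 2.11, Spred1 by 2.08 and Il17rd by 3.50 on the log2 scale (edgeR adjusted p between 1.34e-13 and 0.000737). Spry4 was near 0 with RAS deleted, at 0.0189 to 0.129 TPM with ERF wild type and 0.119 to 0.154 TPM with the knockout label. Its RAS-present means were 6.98 and 2.69 TPM in that order, so the size of its difference is uncertain. Il17rd, a membrane antagonist of FGF signalling, was lower by 3.30 with ERF wild type and differed by 0.19, not called, with the knockout label. Etv4 alone among these 14 genes had a called difference with a negative sign. That call rests on 10 to 19 Etv4 counts per library with the knockout label and RAS deleted. With limma on log2(TPM + 1) the Etv4 difference was -0.91 and not called by the 2-fold minimum. The plot of the RAS effect in the 2 ERF states places Etv4 below the diagonal and those 4 genes above it.

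**Figure D4:**
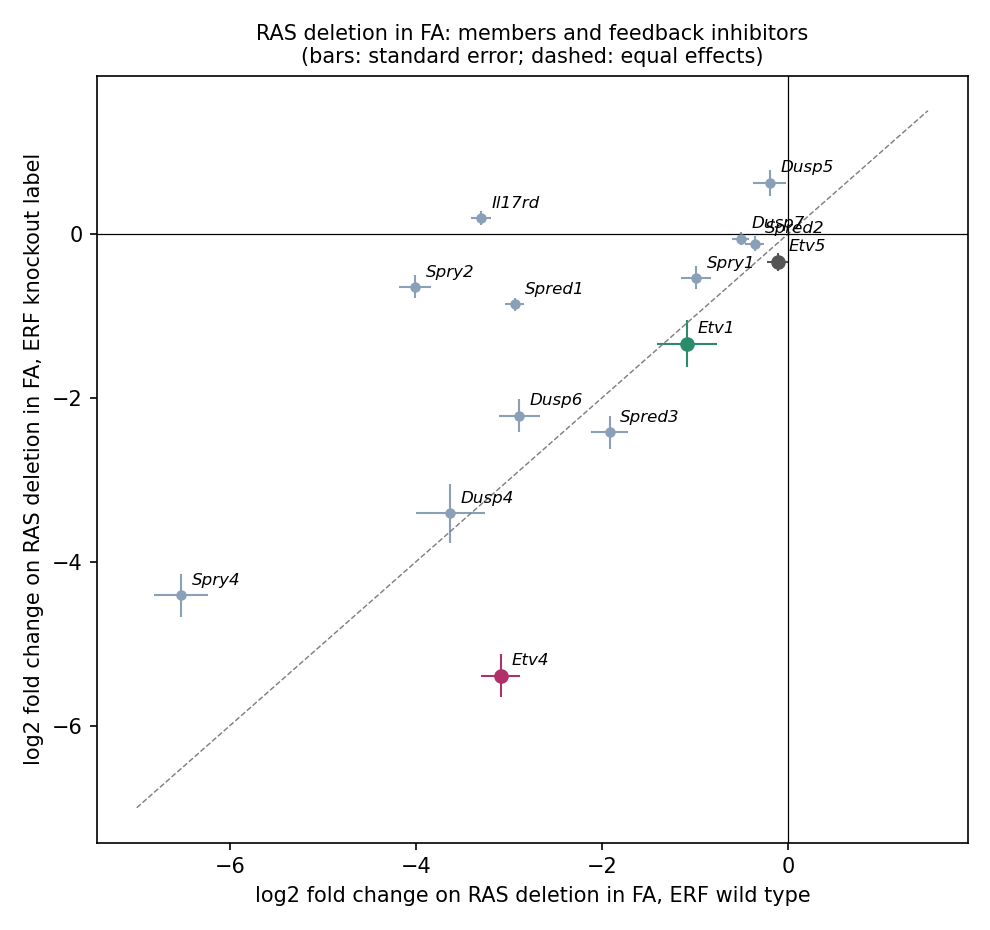
Log2 fold change on RAS deletion in FA with ERF wild type (horizontal) and with the ERF knockout label (vertical) for the 3 PEA3 genes and 11 ERK feedback inhibitors, with standard errors; the dashed line marks equal effects, and the 2 axes share no library. Etv4 lies at -3.09 and -5.39, below the line, while Spry2, Spry4, Spred1 and Il17rd lie above it.

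Immediate early genes and FGF components showed a mixed picture, to be read against 8.93% of all tested genes higher and 8.33% lower with ERF wild type, and 2.81% and 4.06% with the knockout label. Of the 8 tested immediate early genes, RAS deletion in FA lowered 2 with ERF wild type, Egr1 (log2 -2.82) and Myc (-3.93), and 3 with the knockout label, Egr1 (-3.33), Fosl1 (-1.57) and Myc (-1.04), of which DESeq2 called 1. The latter count was 1 without replicate 2 or 3 of the RAS-deleted group or replicate 3 of the RAS-present group. Among the 9 tested FGF ligands and receptors, 1 was higher (Fgfr2) and 2 were lower (Fgf5, Fgfr4) with ERF wild type, and 4 were higher (Fgf5, Fgf8, Fgf15, Fgfr2) and 1 was lower (Fgfr4) with the knockout label. In the former state, 2 were higher without replicate 1 or 3 of the RAS-deleted group or replicate 2 of the RAS-present group, and leaving out that last library left 1 lower. With the knockout label the count of 4 higher fell to 3 whichever of the 6 libraries was left out. Fgf8, a ligand, was at 3.19 TPM with RAS present and at 41.6 TPM with RAS deleted in FA with the knockout label (log2 3.53, edgeR adjusted p 5.48e-06). The receptor gene Fgfr1 was higher by under 2-fold in both ERF states (log2 0.59 and 0.53).

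The known repressors and the turnover machinery of the PEA3 factors showed no called change in RNA with RAS deletion in FA. None of the 4 ETS repressors (Erf, Etv3, Etv6, Elk3), the 3 genes of the Capicua complex (Cic, Atxn1, Atxn1l) or the 7 genes of the Cop1 ligase was called with either ERF label in edgeR or in DESeq2. Without replicate 2 of the FA group of wild-type ERF and undeleted RAS, 1 Capicua complex gene was called higher with ERF wild type. At an unadjusted p under 0.05 edgeR listed 2, 3 and 3 of them with ERF wild type and 1, 1 and 4 with the knockout label. At an adjusted p alone, several shifts under 2-fold passed: Cic, which encodes Capicua, was higher by 0.43 with ERF wild type (edgeR adjusted p 0.000532), its partner genes Atxn1 and Atxn1l differed by 0.87 and -0.72 (edgeR adjusted p 0.00111 and 0.0260), and Cul4a was lower by 0.77 (edgeR adjusted p 1.19e-05). With the knockout label Atxn1 was lower by 0.82 (edgeR adjusted p 0.00137). The shares of all tested genes past an unadjusted p, or past an adjusted p alone, are not given here, so neither rule sets these genes apart. The difference of the RAS effect between ERF states was called for 1 of these 14 genes, Atxn1, at -1.69 (edgeR adjusted p 4.52e-05), beside 13.7% of all tested genes, so this count does not set the 14 apart. Of 16 tested other ETS factors, RAS deletion in FA with ERF wild type raised 5 and lowered 1, beside 8.93% and 8.33% of all tested genes, led by Spic (log2 4.00), Ehf (3.86) and Elf3 (2.71). With the knockout label 1 was higher, Fli1 (log2 3.25), and 0 were lower, beside 2.81% and 4.06% of all tested genes.

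Cell-state markers moved with the same factors. Naive markers summed to 100 to 134 TPM in FA with wild-type ERF and undeleted RAS, to 621 to 878 TPM after RAS deletion, and with the knockout label to 94.3 to 114 TPM before and 144 to 177 TPM after RAS deletion; 9 of 10 were called higher on RAS deletion with ERF wild type, against 2 higher and 1 lower with the knockout label. The shares of all tested genes for these marker counts are again 8.93% higher and 8.33% lower with ERF wild type, and 2.81% and 4.06% with the knockout label. Leaving out 1 library kept that 2 in only 1 of 6 cases. Dropping RAS-present replicate 3 gave 0, and dropping RAS-present replicate 1 or 2, or RAS-deleted replicate 1 or 3, gave 1. Formative markers in FA summed to 328 to 379 TPM before and 152 to 301 TPM after RAS deletion with ERF wild type, where 6 of 9 were called lower and 1 higher (median log2 -1.85). That 1 was lost without RAS-present replicate 1 or RAS-deleted replicate 2 or 3. Their sums with the knockout label were 198 to 245 TPM before and 307 to 321 TPM after, with 1 called higher and 0 lower (median 0.56), and this call was lost whichever of the 6 libraries was left out. Primitive endoderm markers, all 5 detected, summed to 14.5 to 28.7 TPM in RAS-present FA cells with wild-type ERF and to 2.85 to 3.78 TPM with RAS deleted, and to 17.3 to 20.4 and 3.81 to 5.84 TPM with the knockout label; all 5 and 4 of 5 were called lower. Neural markers summed to 28.9 to 31.5 TPM with the knockout label and RAS deleted in FA, against 8.58 to 11 TPM with RAS present. The sums for ERF wild type were 3.85 to 9.05 TPM with RAS deleted and 11.6 to 14.6 TPM with RAS present. Of 3 tested, 1 was called higher with the knockout label and 1 lower with ERF wild type. Trophoblast markers went both ways with ERF wild type, 2 of 5 called higher and 2 lower. With the knockout label 1 was higher. With 1 library left out the ERF-wild-type counts ran from 1 to 2 higher and 1 to 3 lower. The 2 tested fibroblast markers were called lower with ERF wild type (1 to 2 with 1 library left out). With the knockout label 1 of them was higher. The part of these marker shifts in the Etv1 and Etv4 results was not tested.

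Likeness of pattern was described by Pearson's r of log2(CPM + 1) over the 23 libraries, among 10171 genes with a mean of at least 5 CPM. These libraries share groups, so r is a description. For Etv1 the 5 closest were Cenpc1 (0.931), Cdc20 (0.931), Maf1 (0.927), Tsc22d2 (0.926) and Zswim4 (0.909), of which 2 were also in the top 5 by Spearman's rho. Closest to Etv5 were Smad7 (0.835), Timm10 (0.796), Cry1 (0.793), Mtpap (0.786) and Chchd4 (0.766), 4 of them shared with the top 5 by rho. The list for Etv4 was Espn (0.877), Hddc2 (0.859), Idh3a (0.858), B4galt3 (0.853) and Mrps30 (0.845), with 0 shared, so it depends on the measure. Among the members themselves r was 0.600 for Etv4 with Etv5, 0.270 for Etv1 with Etv5 and -0.0651 for Etv1 with Etv4, and none of the 3 was among the 5 genes most like another.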

How the data were processed

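Per the labels, ribosomal RNA was removed and strand-specific libraries were read as 75 bp pairs. Per the submitters' processing notes, bcl2fastq 2.20.0, fastp 0.20.0, Salmon and mm10 were used. The authors deposited expected counts and TPM per gene for each library, and a table of counts whose cells equal the rounded expected counts (0 differ). Salmon divides reads among similar transcripts, so reads from the conserved ETS domain are less certain. Gm26917 took 17.6 to 27.9% of each library. Replicates of a group differed by more than sampling noise.

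Expected counts were rounded and tested with edgeR 4.0.16 (R 4.3.3): filterByExpr, TMM, robust quasi-likelihood, 1 model of 23 libraries, Benjamini-Hochberg over 20372 genes. CPM is scaled by TMM. Ratios used log2(TPM + 0.1). The code was tested on simulated data. Alternatives used limma 3.58.1 and DESeq2 1.42.0. Named genes are the 3 members, members of fixed lists, and the 5 most correlated genes. The members and lists were chosen with earlier results of these data known. Same-numbered libraries deviated together in RAS deletion in 2iL with either ERF label (correlations 0.175 to 0.380), and in 3 medium comparisons (ERF wild type with RAS deleted, and the knockout label with RAS present or deleted; 0.103 to 0.313); the pairing is seen in the data and not stated by the labels.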

Additional observations from a re-analysis of the deposited data

Results flagged for a closer look

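For 6 effects on Etv1 or Etv4, a test of the difference itself found that the effect of a factor changed with another factor (edgeR quasi-likelihood, log2 scale). For Etv4, the effect of RAS deletion in FA differed with the ERF label by -2.30. The response of Etv4 to the medium differed with RAS deletion by -2.64 with ERF wild type and by -5.15 with the knockout label, and it differed with the ERF label by -1.90 where RAS was deleted. The response of Etv1 to the medium differed with RAS deletion by -1.81 with ERF wild type, and with the ERF label by 1.78 where RAS was deleted. These differences share groups with each other, so they are not 6 separate observations. With limma on log2(TPM + 1), 2 of the Etv4 differences were not called: that of RAS deletion in FA by ERF label (-0.91) and that of the medium by ERF label with RAS deleted (-0.55). The difference in the Etv1 medium response by RAS with ERF wild type was not called in a fit of only its own groups (-1.78), but was called there with the replicate block (-2.06).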

How the results depend on the processing

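Of 1155 alternative values for 63 tested results, 1105 kept their direction and their side of the threshold, and 39 results did so in every alternative. DESeq2, DESeq2's size factors in edgeR and leaving out Gm26917 changed no call of Etv1, Etv4 or Etv5. Etv1 in 2iL with RAS present (ERF label) was not called with limma on log2(TPM + 1) (-0.86), on log2(TPM + 0.1) (-1.15), in a fit of its own groups (-1.08) or with the replicate block (-0.95). The shift of the Etv1 medium response with RAS was not called with ERF wild type in a fit of its own groups (-1.78) but was with the replicate block (-2.06), and was called with the knockout label there (-1.07), with the replicate block (-1.07) and without the low-count filter (-1.08). Without that filter its shift with the ERF label and RAS present was called (1.05), as it was without the 4 chromosome 8 libraries (1.43), an alternative chosen after seeing the data. Etv1 on RAS deletion in FA with ERF wild type was not called with limma on log2(TPM + 0.1) (-1.13) or without those 4 libraries (-0.93).

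Without the 2-fold minimum, Etv5 was called in FA over 2iL with the knockout label and RAS deleted (-0.32), on RAS deletion in FA with that label (-0.34), and for the ERF label in FA with RAS present (-0.37), 2iL with RAS deleted (-0.42) and FA with RAS deleted (-0.60), and Etv4 for the ERF label in FA with RAS present (-0.65). With limma on log2(TPM + 1), the Etv4 differences of RAS effect by ERF in FA (-0.91) and of medium effect by ERF with RAS deleted (-0.55) were not called. Signs of uncalled values near 0 turned in limma with either pseudocount: Etv4 medium with the knockout label and RAS present (-0.02), and for Etv5 the medium effect with the knockout label and RAS deleted (0.03), RAS deletion in FA with ERF wild type (0.03), the medium shift by RAS with the knockout label (0.06) and the medium shift by ERF with RAS deleted (0.03); with 0.1 also the Etv4 RAS effect by ERF in 2iL (-0.01). A pseudocount of 1 brought the Etv1 to Etv5 ratio under RAS deletion (-0.43) and the Etv1 to Etv4 ratio under the ERF label (0.38) past the threshold. The causes were not tested. Counts of called listed genes on RAS deletion in FA kept within 1.5 times in 803 of 900 alternatives; without the 2-fold minimum 7 feedback inhibitors were lower and 1 was higher with the knockout label. By CPM, which is not scaled by length, shares ran over 1.73 to 16% for Etv1, 0.285 to 16.1% for Etv4 and 75.9 to 91.1% for Etv5.

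Leaving out 1 library at a time, the ERF label effect in 2iL ran from -1.47 to -0.75 for Etv1 with RAS present and -1.16 to -0.91 for Etv4 with RAS deleted. RAS deletion in FA with ERF wild type ran from -1.21 to -0.90 for Etv1 and -0.24 to 0.05 for Etv5. The Etv1 medium shift by ERF with RAS present ran from 0.72 to 1.45, the Etv1 ERF effect in FA with RAS present from -0.05 to 0.03, and the Etv5 medium effect with the knockout label and RAS present from -0.07 to 0.01. The Etv1 to Etv5 ratio ran from -0.58 to -0.37 under RAS deletion, past the threshold without replicate 1 of the ERF-wild-type RAS-present group in 2iL (-0.58) or replicate 2 of its RAS-deleted group (-0.50), and from -0.71 to -0.49 under the ERF label, losing the call without replicate 2 of the former group (-0.49). The replicate block changed no other call of the 3 genes. Depth limits Etv4 most, at 10 to 19 counts with the knockout label and RAS deleted in FA.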
